A study of Mus musculus with 9 samples.

Results

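The miRNAs described here are 6 stromal and endothelial hairpins, mmu-mir-143, mmu-mir-145a, mmu-mir-199a, mmu-mir-199b, mmu-mir-214 and mmu-mir-126a, of 1240 hairpin names in the count table. They were chosen from results of these same data, in which miR-143-3p stood far above all else in replicate 3 of the cells exposed to 5-Brd-2′-dU, so the levels in that library are given as a description, without a test. Members were found by name, as every entry that ends in one of these hairpin names plus the mature names of the same miRNAs, which gave 119 of the 6414 entries of the table. Counts were summed by hairpin and arm, where an entry starting before position 35 of its hairpin was taken as the 5p arm and a later one as the 3p arm. No entry lay close to that limit, since the last start on the 5p side was 31 and the first on the 3p side was 39. Of the 12 arms, 11 had at least 1 count, and miR-214-5p had none in any library.

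B16F1 is an established mouse melanoma line, derived from skin of a C57BL/6J mouse and labelled C57BL/6. There were 3 small RNA libraries of control cells, which were not exposed, 3 of cells cultured with L-Tyr at 5 mM and 3 of cells cultured with 5-Brd-2′-dU at 2.5 µg per mL, and every exposure lasted 72 h. L-Tyr is the substrate of melanin synthesis and 5-Brd-2′-dU is a thymidine analogue that enters DNA. The study counts the replicates of a group as independent unless noted otherwise, while the labels name no separate cultures, so p-values measure the spread between these libraries. Whether the library labelled replicate 3 of 5-Brd-2′-dU holds RNA of B16F1 cells alone was not tested. Some miRNAs known from other cell types were high in it, while others of the same lists were low or had no counts. Its values describe that library and are not given as an effect of 5-Brd-2′-dU.

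Mature miRNAs guide silencing complexes to messenger RNAs through the seed, bases 2 to 8 from the 5′ end. miR-143 and miR-145 are processed from a shared primary transcript and are known as miRNAs of smooth muscle and fibroblasts. The miR-199 and miR-214 hairpins are expressed in mesenchymal cells, and miR-126 is the best known miRNA of endothelial cells, made from the gene of the endothelial protein Egfl7. None of them is regarded as a marker of melanocytes.

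The mature sequences for which RefSeq (GRCm38.p6) holds an entry are shown with the seed in capitals, because the seeds set the members apart and the 5′ end is examined again with the tags. A hairpin entry was found for 4 of the 6 members.
miR-199a-5p: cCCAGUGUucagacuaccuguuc
miR-199a-3p: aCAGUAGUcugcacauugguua
miR-199b-3p: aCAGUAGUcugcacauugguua
miR-214-5p: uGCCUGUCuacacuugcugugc
miR-214-3p: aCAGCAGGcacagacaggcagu
miR-126a-3p: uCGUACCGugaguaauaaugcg
miR-199a-3p and miR-199b-3p are the same molecule, so their counts cannot be told apart by sequence. The other sequences each have a seed of their own.

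Exact matches of the hairpins to the genome build NCBIM37, which is mm9, the build named by the authors, placed each at 1 site. Mir199a-2 lies at chr1:164147945-164148054 and Mir214 at chr1:164153499-164153608, both on the plus strand, 5444 bp apart. Both fall in exons of the noncoding gene Dnm3os and, on the opposite strand, in an intron of the dynamin gene Dnm3. Mir199a-1 lies at chr9:21300939-21301008 on the minus strand, within an intron of Dnm2 that runs on the opposite strand. Mir199b lies at chr2:32173980-32174089 on the plus strand, within an intron of Dnm1 on the opposite strand. Mir126a lies at chr2:26446877-26446949 on the plus strand, where the annotation has an exon of Egfl7 and an intron of Gm20532.

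Total counts per library ranged from 198810 to 424122 (control cells), from 144452 to 238245 (L-Tyr) and from 171362 to 384486 (5-Brd-2′-dU). Levels are given in CPM, the count divided by the library's total and multiplied by 1000000. A count of 0 allows up to 3 counts, or 7.07 to 20.8 CPM depending on the library, and all intervals given are 95% Wilson intervals that cover counting error only. The melanocytic miRNA miR-211, encoded in an intron of a melanocyte gene, was detected in all 9 libraries with 1312 to 6812 counts.

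All member entries together held 0.372% (0.346 to 0.4) of the counts in control 1, 0.323% (0.307 to 0.341) in control 2 and 0.175% (0.16 to 0.192) in control 3. Their share was 0.296% (0.27 to 0.326) in L-Tyr 1, 0.847% (0.811 to 0.885) in L-Tyr 2 and 0.304% (0.28 to 0.331) in L-Tyr 3. With 5-Brd-2′-dU it was 0.396% (0.368 to 0.427), 0.582% (0.558 to 0.606) and 20.8% (20.7 to 21). Replicate 3 of 5-Brd-2′-dU therefore stood apart from the other 8 libraries, none of which reached 1%, and L-Tyr 2 was the next highest. miR-143-3p made up 93% of the member counts in replicate 3 of 5-Brd-2′-dU and 50.6% to 86.4% elsewhere.

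**Figure D1:**
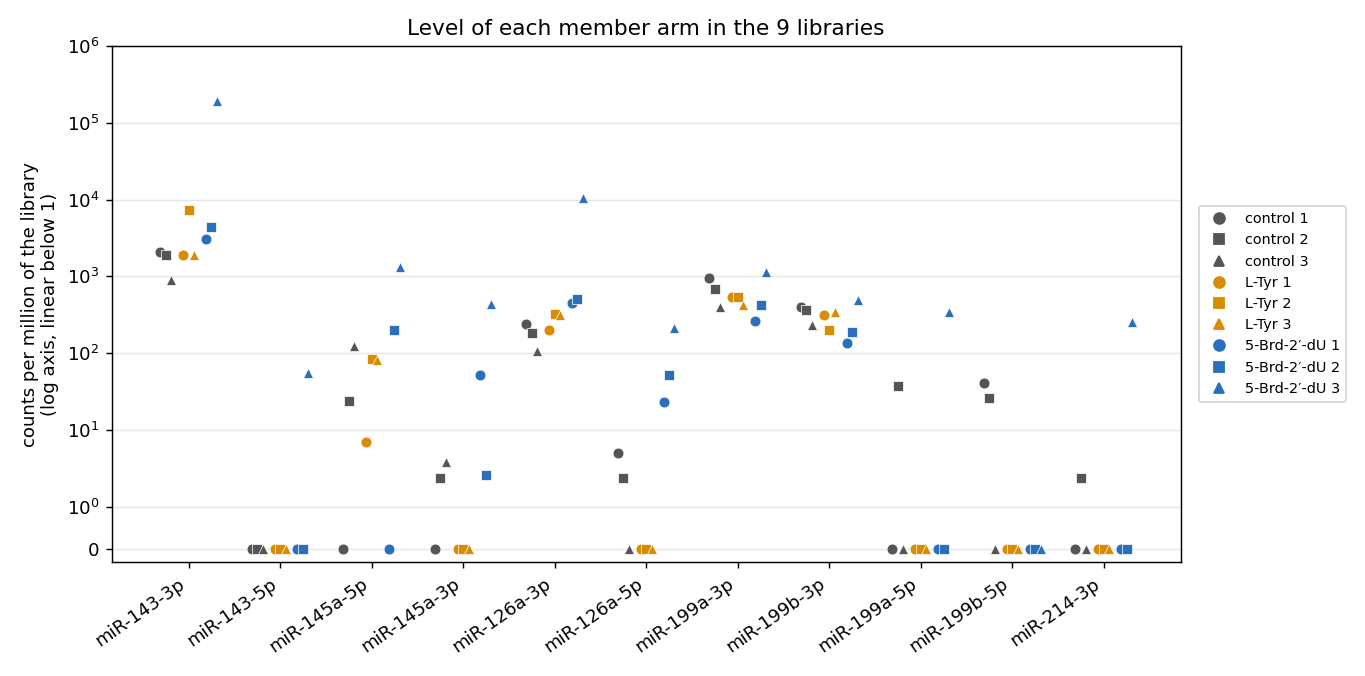
Level of each member arm with at least 1 count in the 9 libraries, in CPM on a log axis that is linear below 1; colours are the groups and symbols the replicate numbers. Replicate 3 of 5-Brd-2′-dU lies far above the rest for miR-143-3p at 193762 CPM and for miR-126a-3p at 10385 CPM, but close to control 1 for miR-199a-3p and miR-199b-3p.

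miR-143-3p, the guide arm of mmu-mir-143, had 414, 813 and 234 counts in the control libraries, which is 2082, 1917 and 887 CPM. Cells exposed to L-Tyr had 275, 1744 and 329 counts, or 1904, 7320 and 1886 CPM. Cells exposed to 5-Brd-2′-dU had 522, 1707 and 73886 counts, or 3046, 4440 and 193762 CPM. L-Tyr 1 and L-Tyr 3 lay within the range of the control libraries, L-Tyr 2 lay above it, and replicate 3 of 5-Brd-2′-dU was 26.5 times the next highest library. The mean level was 1629 ± 648 CPM (SD, n = 3) in control cells and 3703 ± 3132 CPM (SD, n = 3) for L-Tyr. It was 67083 ± 109710 CPM (SD, n = 3) for 5-Brd-2′-dU, and 3743 ± 985 CPM (SD, n = 2) without replicate 3. The opposite arm, miR-143-5p, was counted in replicate 3 of 5-Brd-2′-dU alone, with 21 counts against 73886 of the 3p arm.

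miR-145a-5p, the arm that is taken up into silencing complexes and acts in smooth muscle differentiation, had 0, 10 and 33 counts in control cells and 1, 20 and 14 counts for L-Tyr. Cells exposed to 5-Brd-2′-dU had 0, 76 and 506 counts, the last of these equal to 1327 CPM and 6.71 times the next highest library. The groups overlapped, because 5-Brd-2′-dU replicate 1 and control 1 both had none. miR-145a-3p had 0, 1 and 1 counts in control cells, none after L-Tyr, and 9, 1 and 164 counts after 5-Brd-2′-dU. The 5p arm held 75.5% (72.1 to 78.6) of the mmu-mir-145a counts in replicate 3 of 5-Brd-2′-dU. In replicate 2 it held 98.7% (93 to 99.8), and in replicate 1 it held 0 of 9 counts.

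miR-126a-3p, which restrains inhibitors of growth factor signalling in endothelial cells, had 48, 78 and 28 counts in control cells, or 241, 184 and 106 CPM. Cells exposed to L-Tyr had 29, 78 and 54 counts, or 201, 327 and 310 CPM. Cells exposed to 5-Brd-2′-dU had 76, 195 and 3960 counts, or 444, 507 and 10385 CPM. These levels include a hairpin predicted by the authors' software whose name also ends in mmu-mir-126a, which holds 1379 counts without a tag and 912 in tags of the 4546 counts over all libraries. The tags of the known hairpin alone had 22, 45 and 14 counts in control cells, 15, 41 and 25 after L-Tyr, and 41, 100 and 1952 after 5-Brd-2′-dU. Replicate 3 was 20.5 times replicate 2, the next highest library. The mean was 177 ± 67.9 CPM (SD, n = 3) in control cells, 279 ± 68.6 CPM (SD, n = 3) after L-Tyr and 3779 ± 5721 CPM (SD, n = 3) after 5-Brd-2′-dU, or 475 ± 45 CPM (SD, n = 2) without replicate 3. miR-126a-5p, the passenger arm, had 1, 1 and 0 counts in control cells, none for L-Tyr, and 4, 20 and 82 counts for 5-Brd-2′-dU.

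The miR-199 and miR-214 members did not share a pattern. miR-199a-3p, which acts on growth factor receptors and matrix genes in mesenchymal cells, had 189, 287 and 104 counts in control cells, or 951, 677 and 394 CPM. Cells exposed to L-Tyr had 77, 128 and 74 counts, or 533, 537 and 424 CPM, and those with 5-Brd-2′-dU had 45, 165 and 435 counts, or 263, 429 and 1141 CPM. Replicate 3 of 5-Brd-2′-dU was again the highest, at 1.2 times control 1 in CPM, and the 3 groups overlapped. That ratio is lowered by the members themselves, which held 20.8% of the counts of replicate 3. miR-199b-3p ran the same way, from 134 to 402 CPM in the other 8 libraries and 498 CPM in replicate 3 of 5-Brd-2′-dU, and its sequence is that of miR-199a-3p.

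The 5p arms and miR-214 differed from this. miR-199a-5p had 16 counts in control 2, 130 in replicate 3 of 5-Brd-2′-dU and none in the other 7 libraries. miR-214-3p, which is processed from the same transcript as miR-199a-2, had 1 count in control 2, 98 counts in replicate 3 of 5-Brd-2′-dU, equal to 257 CPM, and none elsewhere. miR-199b-5p went against these, with 8 and 11 counts in controls 1 and 2 and none in any other library, replicate 3 of 5-Brd-2′-dU included. The 5p arm thus held 23% (19.7 to 26.7) of the mmu-mir-199a counts in replicate 3 of 5-Brd-2′-dU and 0% (0 to 1.98) of the mmu-mir-199b counts. Of the 11 member arms with any count, replicate 3 of 5-Brd-2′-dU had the highest CPM of the 9 libraries for 10. Among these, miR-199a-3p and miR-199b-3p are the same molecule. In the whole table, replicate 3 of 5-Brd-2′-dU was the highest for 91 of the 654 hairpin arms with any count (13.9%). The rule used this library, and nothing is read from the comparison.

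The exposure to L-Tyr was compared with control cells by edgeR's quasi-likelihood test over 216 hairpin arms, of which 6 (2.78%) were called at an adjusted p under 0.05. Of the members, 5 arms passed the filter on low counts and none was called or had an unadjusted p under 0.05, against 34 arms of the whole table with an unadjusted p under 0.05. DESeq2 called 17 arms, but gave an adjusted p for 1 of the 5 members alone, miR-143-3p (DESeq2 adjusted p = 0.141), so the other 4 could not be called by it. The log2 fold change of miR-143-3p was 0.94 ± 0.524 (SE, edgeR adjusted p = 0.465), and that of miR-126a-3p was 0.43 ± 0.786 (SE, edgeR adjusted p = 0.931). The value for miR-143-3p rested on L-Tyr 2, since without that library it was -0.0032. The others were -0.65 ± 0.515 (SE) for miR-199a-3p, -0.43 ± 0.683 (SE) for miR-199b-3p and -0.18 ± 1.86 (SE) for miR-145a-5p, beside a median of -0.19 over all arms tested. The study itself lists miR-143-3p as over-expressed in this comparison by DESeq2, with an average count far below the arm sums used here. It was not called here on counts summed by arm, and the listing and the sum are unlike quantities. The member was not chosen independently of that listing.

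With replicate 3 of 5-Brd-2′-dU left out, the remaining 2 libraries of that group were compared with the 3 control libraries over 265 arms, and 4 (1.51%) were called. None of the 5 member arms tested was called. miR-143-3p gave a log2 fold change of 1.09 ± 0.354 (SE), with an unadjusted p of 0.0129 and an adjusted p of 0.155 by edgeR, and was the only member among the 38 arms with an unadjusted p under 0.05. DESeq2 called 23 arms and none of the 4 members for which it gave an adjusted p, which left out miR-145a-5p. miR-126a-3p gave 1.32 ± 0.742 (SE, edgeR adjusted p = 0.512). For both, replicates 1 and 2 lay above every control library, as they did for 63 of the 265 arms (23.8%). miR-199a-3p was at -1.08 ± 0.583 (SE, edgeR adjusted p = 0.512), miR-199b-3p at -1.17 ± 0.797 (SE) and miR-145a-5p at 0.65 ± 2.3 (SE), and the median over all arms was -0.09.

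With all 3 libraries of 5-Brd-2′-dU the fitted log2 fold changes against control cells were 5.85 ± 1.73 (SE) for miR-143-3p, 4.87 ± 1.41 (SE) for miR-126a-3p and 3.64 ± 2.01 (SE) for miR-145a-5p. Those of miR-199a-3p and miR-199b-3p were 0.14 ± 0.727 (SE) and -0.02 ± 0.788 (SE). These values describe replicate 3, which chose the members. In that fit 7 of 235 arms (2.98%) were called and none of them was a member. Replicates 1 and 2 were 0.0157 and 0.0229 times the miR-143-3p level of replicate 3.

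Against cells exposed to L-Tyr, the 2 remaining libraries of 5-Brd-2′-dU gave 0.03 ± 0.595 (SE) for miR-143-3p and 0.80 ± 0.871 (SE) for miR-126a-3p. The values of the remaining arms were -0.52 ± 0.796 (SE) for miR-199a-3p, -0.82 ± 1.14 (SE) for miR-199b-3p and 0.72 ± 2.29 (SE) for miR-145a-5p. No member was called there or had an unadjusted p under 0.05, with 5 of 231 arms (2.16%) called in all by edgeR, 24 at an unadjusted p under 0.05 and 11, again no member, called by DESeq2. With replicate 3 the values were 4.69 ± 1.71 (SE) for miR-143-3p and 4.23 ± 1.36 (SE) for miR-126a-3p, and 6 of 206 arms (2.91%) were called, again without a member. The comparisons with control cells share the control libraries, so their values are not independent of each other.

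**Figure D2:**
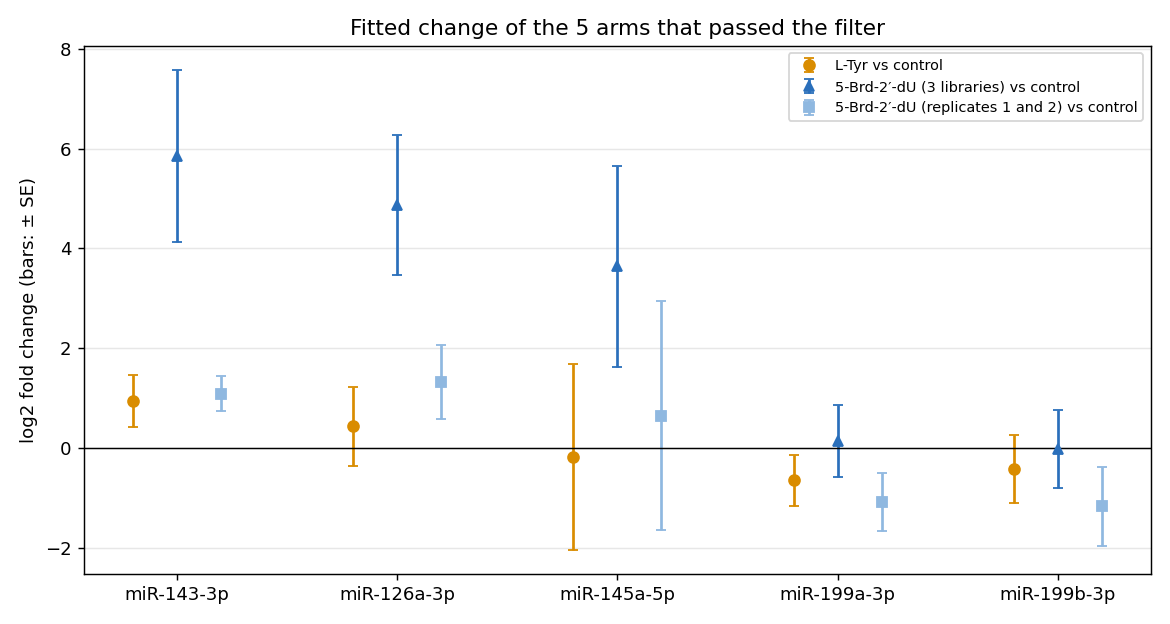
Fitted log2 fold change of the 5 member arms that passed the filter on low counts, with bars of 1 SE, for each exposure against control cells, that of 5-Brd-2′-dU with all 3 libraries and with replicates 1 and 2 alone. Leaving out replicate 3 takes miR-143-3p from 5.85 to 1.09 and miR-126a-3p from 4.87 to 1.32, while the values of miR-199a-3p and miR-199b-3p go from near 0 to -1.08 and -1.17.

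The table lists members mostly as tags, sequences of 15 to 20 nt under a hairpin, and of the 12 mature names 10 were at 0 in every library. Where a tag begins was not used in choosing the members. For the arms shown above with their mature sequence, the most abundant tag is given, and for miR-126a-3p and miR-199a-3p also a tag with another start, so that the 5′ ends can be compared. Capitals mark the seed of the mature miRNA where the tag holds all of it.
miR-126a-3p, most abundant tag: tCGTACCGtgagtaataatg
miR-126a-3p, most abundant tag with a later start: gtaccgtgagtaataatgcg
miR-199a-3p, most abundant tag: CAGTAGTctgcacattggtt
miR-199a-3p, most abundant tag with the full 5′ end: aCAGTAGTctgcacattggt
miR-199a-5p, most abundant tag: cCCAGTGTtcagactacctg
miR-214-3p, most abundant tag: aCAGCAGGcacagacaggca
The first of these had 1265 counts in replicate 3 of 5-Brd-2′-dU and at most 24 in any other library. The miR-126a-3p tag that starts later, and so lacks part of the seed, had 108 counts in replicate 3 and at most 24 elsewhere. The most abundant miR-199a-3p tag lacks the first base of the mature miRNA and had 183 counts in replicate 3 and 138 in control 2.

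The share of miR-143-3p tag counts at the 5′ end used most often, position 39 of the hairpin, was 42.3% (37.6 to 47.1), 48.3% (44.9 to 51.7) and 61.4% (55 to 67.4) in control cells. It was 56.2% (50.3 to 62), 62.8% (60.5 to 65) and 20.1% (16.1 to 24.7) after L-Tyr, and 38.4% (34.3 to 42.6), 39.4% (37.1 to 41.7) and 81.8% (81.5 to 82.1) after 5-Brd-2′-dU. Replicate 3 of 5-Brd-2′-dU lay above the intervals of the other 8 libraries. The start was picked on counts over all libraries, and replicate 3 held 60372 of its 63266 counts. It was also the most used start in each library except L-Tyr 3, where a start 2 bases later had 133 counts against 66. Since replicate 3 largely set the reference, its higher share is a description. For miR-126a-3p under its known hairpin the share at the RefSeq 5′ end was 78.1% (76.2 to 79.9) there and 73.2% (58.1 to 84.3) in L-Tyr 2, against 0% to 35.6% in the other 7 libraries.

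The miR-199 arms were made up differently. Of the miR-199a-3p counts in replicate 3 of 5-Brd-2′-dU, 13.6% (10.7 to 17.1) began at the RefSeq 5′ end, with 13.3% (8.97 to 19.4) in replicate 2, 57.8% (43.3 to 71) in replicate 1 and 0% to 4.76% in the 6 other libraries. All 130 counts of miR-199a-5p in replicate 3 began at the RefSeq 5′ end, and 55 of the 98 counts of miR-214-3p did, the other 43 starting 1 base earlier. Over all other miRNAs with a RefSeq entry, 45.6% (45.4 to 45.9) of the tag counts in replicate 3 began at that end, against 26.7% to 30.3% in the other 8 libraries. The higher share in replicate 3 was therefore found outside the members too, and its part in the results was not tested.

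**Figure D3:**
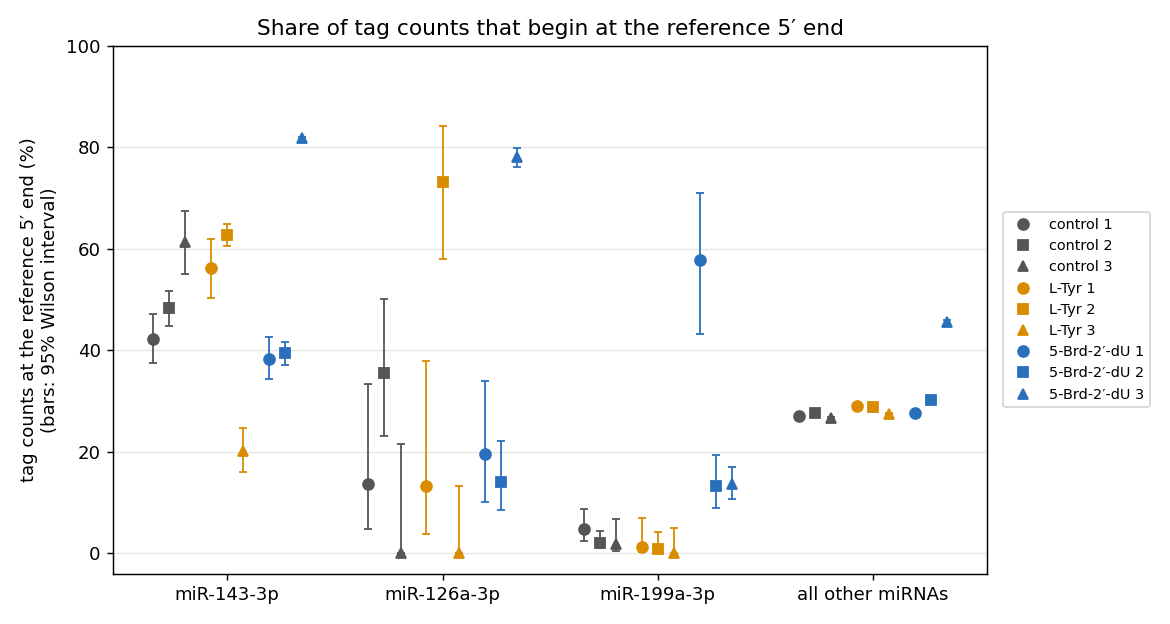
Share of tag counts that begin at the reference 5′ end in each library, in percent with 95% Wilson intervals, for 3 member arms and for all other miRNAs with a RefSeq entry. The reference for miR-143-3p is its most used start over all libraries, which replicate 3 of 5-Brd-2′-dU largely set. Replicate 3 of 5-Brd-2′-dU is the highest library for miR-143-3p at 81.8%, for miR-126a-3p at 78.1% and for the other miRNAs at 45.6%, but not for miR-199a-3p.

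Several tags were listed under more than 1 hairpin, so the origin of these counts is uncertain. The 18 tags shared by mmu-mir-199a-1 and mmu-mir-199a-2 had 811 counts under the former and 839 under the latter over the 9 libraries. The 8 tags shared by mmu-mir-199a-2 and mmu-mir-199b had 701 and 713 counts. Among the pairs of values of 1 tag in 1 library with 20 or more counts together, 1 of 26 was equal between the copies of mmu-mir-199a and 4 of 20 between mmu-mir-199a-2 and mmu-mir-199b, whose shared tags had 31 and 60 counts in L-Tyr 3. Taken as 1 molecule, miR-199-3p had 1353, 1040 and 629 CPM in control cells, 851, 739 and 768 CPM after L-Tyr, and 397, 616 and 1639 CPM after 5-Brd-2′-dU. Likewise, 10 tags of miR-126a-3p were listed both under mmu-mir-126a, with 889 counts, and under the predicted hairpin, with 912 counts.

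The Mir143 hairpin, which had the highest counts here, and its neighbour Mir145 lie on the minus strand of chromosome 18 in NCBIM37, at 61808850 to 61808912 and 61807470 to 61807557, and are 1292 bp apart with no other annotated gene over either hairpin.

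The 5 hairpin arms outside the members whose log2 CPM was most like that of miR-143-3p, by Pearson's r over the 9 libraries among 317 arms with 50 counts or more, were miR-431-5p (r = 0.93), miR-144-3p (r = 0.928), miR-142a-5p (r = 0.924), miR-101a-3p (r = 0.923) and miR-451a-5p (r = 0.903). All 9 points share the library totals, and replicate 3 of 5-Brd-2′-dU was the highest for each of the 5. Without that library r was 0.312 for miR-431-5p, 0.707 for miR-144-3p, 0.319 for miR-142a-5p, 0.718 for miR-101a-3p and 0.566 for miR-451a-5p. With L-Tyr 2 left out as well, these became 0.246, 0.595, 0.627, 0.508 and -0.192. The 5 arms were ranked with replicate 3 of 5-Brd-2′-dU included, and r was lower without it for each. The 0.627 of miR-142a-5p rested on 6 counts in 5-Brd-2′-dU 2, its only counts outside replicate 3. For miR-451a-5p r changed sign once both libraries were left out. miR-431-5p had 654 counts in replicate 3 of 5-Brd-2′-dU and at most 2 in any other library, and miR-451a-5p had 1462 there, 65 in L-Tyr 2 and at most 4 elsewhere. Of the members, miR-126a-3p was the most like miR-143-3p, with r = 0.971 over 9 libraries and 0.785 over 8.

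Lists of miRNAs known from other cell types were summed in each library, since B16F1 cells are of melanocytic origin. The 4 erythroid hairpins, which include miR-451a and miR-144, summed to 5423 CPM in replicate 3 of 5-Brd-2′-dU and to 0 to 595 CPM in the other libraries, with 537 CPM in L-Tyr 2, and 2 of the 4 were highest in replicate 3. The other erythroid hairpins, miR-486a and miR-486b, were at 113 and 105 CPM there, below the 239 and 268 CPM of replicate 1. The 5 leukocyte hairpins summed to 1104 CPM against 118 to 630 CPM, the highest of these in L-Tyr 2. In replicate 3 miR-142a had 306 counts and miR-223 had 115, whereas miR-150 and miR-155 had none and miR-146a had none against 110 to 554 CPM in the other libraries. The 7 epithelial hairpins summed to 2531 CPM against 186 to 1807 CPM, with 413 counts of miR-200c, 343 of miR-141 and 139 of miR-205 in replicate 3 and none of miR-200a, miR-200b or miR-429. The seventh, miR-203, was at 184 CPM in replicate 3, against 811 and 918 CPM in replicates 1 and 2, 568 to 1239 CPM after L-Tyr and 184 to 227 CPM in control cells.

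The muscle list summed to 173 CPM in replicate 3, all from 66 counts of miR-1a, with miR-133a, miR-133b, miR-206 and miR-208a at 0, and to 0 to 69.2 CPM elsewhere. The 3 hepatic hairpins summed to 682 CPM in replicate 3, within the 106 to 794 CPM of the other libraries, and 1 of them, miR-192, was highest there. The 3 neural hairpins summed to 2177 CPM against 2288 to 6472 CPM, with miR-124 and miR-219a at 0 in replicate 3, and the 3 pancreatic hairpins were at 0 in all libraries. The 6 other stromal hairpins, among them miR-10b and miR-140, summed to 12040 CPM in replicate 3 and to 16661 to 25977 CPM elsewhere, and none of the 6 was highest in replicate 3. The other endothelial hairpin, miR-126b, was at 0 in all libraries.

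The 2 melanocytic hairpins, miR-211 and miR-204, summed to 5415 CPM in replicate 3 of 5-Brd-2′-dU. Replicates 1 and 2 had 7656 and 8039 CPM, the control libraries between 10910 and 15602 CPM, and the L-Tyr libraries between 24613 and 28605 CPM. Replicate 3 thus had the highest sum for the erythroid, leukocyte, epithelial and muscle lists, in each from a part of the hairpins. In CPM of all counts it had the lowest sum for the melanocytic, neural and other stromal lists. The members held 20.8% of the counts of replicate 3, which lowers the CPM of all else in it. The neural rank depends on this, with 2177 CPM in replicate 3 against 2288 CPM in replicate 1. So does the hepatic rank, with 682 CPM in replicate 3 against 794 CPM in replicate 1. The part of these lists in the levels of the members was not tested. In RNA from whole cultures more cells of a type and more RNA per cell cannot be told apart.

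**Figure D4:**
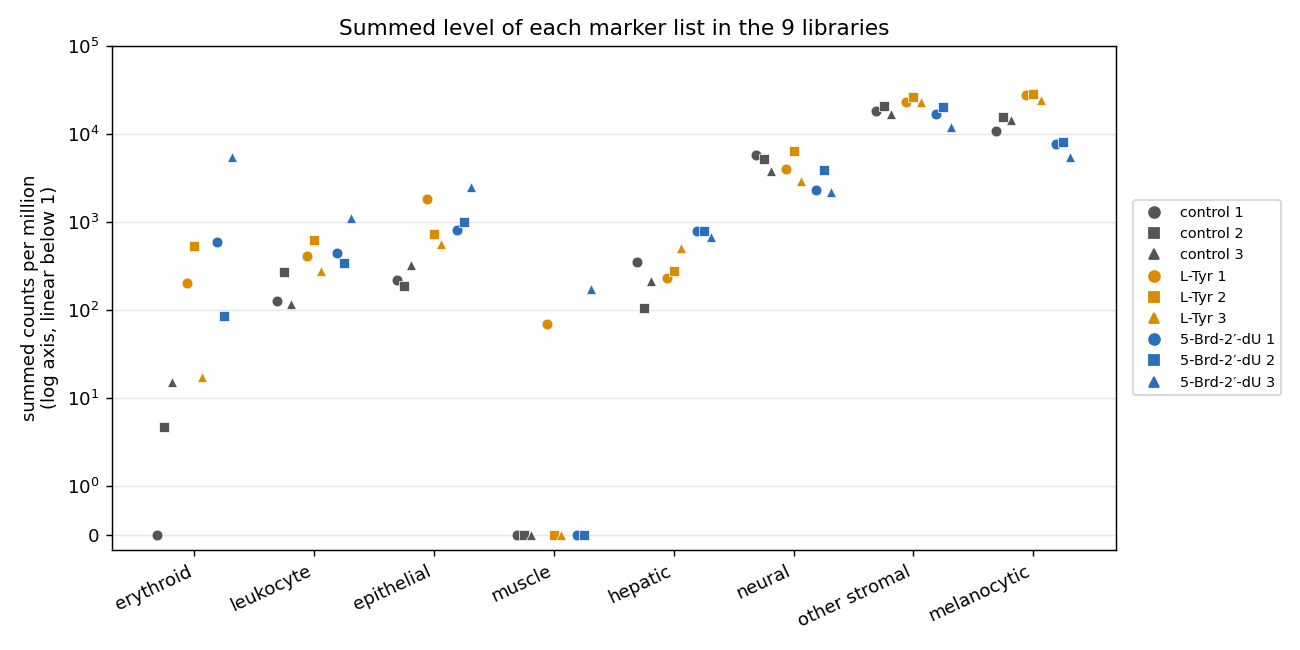
Summed level of each marker list with any count in the 9 libraries, in CPM on a log axis that is linear below 1; colours are the groups and symbols the replicate numbers. Replicate 3 of 5-Brd-2′-dU is the highest library for the erythroid list at 5423 CPM, and for the leukocyte, epithelial and muscle lists. It is the lowest for the melanocytic, neural and other stromal lists, the last at 12040 CPM. The neural rank depends on library totals that include the members.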

How the data were processed

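Small RNA libraries of B16F1 cells were grouped by their labels. The deposited values are raw counts, which the authors obtained in Illumina's BaseSpace (Small RNA app, version 1.0) from readings of 17 to 35 nt aligned to mm9 and miRBase version 21, a mature name being given at full identity. Their normalized counts and 3 tables of DESeq2 comparisons (fold changes and p-values) were not used.

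Counts were summed by hairpin, with the copy suffix dropped, and arm. Each comparison was fitted on its own libraries over the whole table in R 4.3.3 with edgeR 4.0.16 (TMM factors, filterByExpr, quasi-likelihood F test, Benjamini-Hochberg adjustment, calls at an adjusted p under 0.05). DESeq2 1.42.0 was an alternative. The fit was tested on simulated data. Tables were made in Python 3.11.15 with scipy 1.17.1.

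The members, the marker lists and the rules were chosen with earlier results of these data known. The text names every member arm with a count, the 5 arms most like miR-143-3p (log2 CPM, prior count 2) and some of the marker hairpins, and prints the most abundant tag of 4 member arms; the tags with another start were added after their values were seen. Sequences of mmu-mir-143 and mmu-mir-145a are not printed here. The alternatives were other scaling and filters, DESeq2, 1 fit of all libraries, a replicate block, other handling of tags, and leaving out each library. Chosen after seeing the data were pooling of shared tags and leaving out predicted hairpins.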

Additional observations from a re-analysis of the deposited data

How the results depend on the processing

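Of 416 values of single member arms under the alternatives, 376 kept their direction and, where an adjusted p was given, their side of the threshold. Another 9 passed the threshold only under the alternative and 31 changed sign. No member was called in L-Tyr against control cells, or in either comparison without replicate 3 of 5-Brd-2′-dU, under any alternative. The fits with all 3 libraries of 5-Brd-2′-dU hold replicate 3, which chose the members, so member calls in them are a description. Against control cells, 3 of the 37 arms called without a filter on low counts were members (miR-143-3p, miR-126a-3p and miR-145a-5p). With all libraries in 1 fit, 2 of 15 called arms were members. Leaving out a library gave 0 to 2 member calls, the 2 among 8 called arms without 5-Brd-2′-dU replicate 1. Against L-Tyr, 2 of the 26 arms called without a filter were members (miR-143-3p and miR-126a-3p). The cause was not tested. DESeq2 gave no p for miR-143-3p and miR-126a-3p in these comparisons, and no adjusted p for 4 of the 5 members in L-Tyr against control cells, so it could not call them.

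The sign changes, on the log2 fold change scale, were these. In L-Tyr against control cells, miR-145a-5p was 0.21 by total count and miR-199b-3p 0.21 by tag, and with a library left out miR-143-3p ran from -0.0032 to 1.25 and miR-145a-5p from -0.75 to 2.00. In 5-Brd-2′-dU against control cells, miR-199a-3p was -0.14 by total count, -0.68 by tag and -0.04 with each tag sequence counted once, and with a library left out -1.08 to 0.52, and miR-199b-3p -1.17 to 0.33. In 5-Brd-2′-dU against L-Tyr, miR-199b-3p was -0.07 by total count and -0.62 by tag, miR-199a-3p -0.45 by tag, and with a library left out they ran from -0.82 to 0.66 and -0.52 to 1.07. Without replicate 3, miR-145a-5p ran from -6.85 to 1.68 against control cells (lowest without replicate 2, which leaves it at 0 counts in the exposed library) and from -6.36 to 1.73 against L-Tyr, where miR-143-3p ran from -0.32 to 0.96 and was -0.36 by tag.

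Numbers of called arms in the whole table moved more. In the order L-Tyr and 5-Brd-2′-dU against control cells, 5-Brd-2′-dU without replicate 3 against control cells, and 5-Brd-2′-dU with and without replicate 3 against L-Tyr, DESeq2 called 17, 21, 23, 13 and 11, no filter gave 11, 37, 16, 26 and 9, and single tags gave 1, 0, 0, 2 and 1. Leaving out a library gave 1 to 18, 1 to 11, 0 to 26, 0 to 5 and 0 to 7. Total counts gave 3 for the second and 10 for the third, a mean count of at least 50 gave 12 and pooled shared tags 9 for the third, and 1 fit of all libraries gave 15 for the second and 3 for each of the last pair.

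Same-numbered libraries correlated at -0.119 to 0.0293 in their deviations from the group means, so no pairing by replicate number was seen in these. With 3 libraries per group this cannot show that there was none. Total counts rose in the order of replicates 1, 3 and 2 in each group. Whether the numbers mark a batch was not tested. With a replicate block the 5 comparisons called 10, 1, 17, 2 and 0 arms, and 0 members in each. Under that block miR-145a-5p changed sign to 0.86 for L-Tyr against control cells, miR-199a-3p to -0.37 for 5-Brd-2′-dU against control cells, miR-199b-3p to -0.10 for 5-Brd-2′-dU against L-Tyr, and, without replicate 3, miR-143-3p to -0.01 and miR-145a-5p to -0.02 against L-Tyr.

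The level of miR-143-3p in replicate 3 of 5-Brd-2′-dU was 244776 CPM on totals without the members and 244340 CPM on TMM-scaled totals, and in L-Tyr 2 it was 6655 CPM on TMM-scaled totals. Its share at the most used 5′ end was 82.6% over tags of 17 nt or more. Counts under 3 per library limit miR-143-5p, miR-145a-3p, miR-126a-5p, miR-199a-5p, miR-199b-5p and miR-214-3p, for which most libraries could not show a difference.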
